A study of Homo sapiens with 6 samples.

Results

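The S100 proteins are small calcium-binding proteins, and 10 of their genes are described here in the human breast tumour line MDA-MB-436, an established cell line. They are S100A2, S100A3, S100A4, S100A6, S100A8, S100A9, S100A10, S100A11, S100A16 and S100P, 10 of the 19775 genes measured, and they are read by 13 of the 54613 probe sets that were tested. Each of these probe sets names a single gene. S100P lies on chromosome band 4p16 and the other 9 genes lie on 1q21. The genes were chosen by measured values, with their log2 differences between the 2 groups of arrays in view, so their values in that comparison are given as a description, with no test. The 8 gene lists read beside them were also chosen with earlier results of these data known, so their counts and adjusted p-values are not independent of those results.

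The study compared 3 arrays labelled wild type with 3 arrays labelled NF1-C2S transfected. Its record writes the construct NF1-C2, which is a nuclear factor I-C (NFIC) isoform, a DNA-binding transcription factor, carried on an expression plasmid in a stable transfection, and the condition label writes NF-C2. All 6 samples are of the same line, which was grown in RPMI-1640 with fetal calf serum, PEST and insulin. No sample with an empty plasmid is named in the labels, and they do not state whether the transfected cells are 1 clone or a pool. The labels do not describe the replicates as separate cultures, so errors and p-values cover only the spread among these arrays, and that spread may be technical.

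Values are the deposited log2 expression values made with RMA, a method that corrects background, normalizes arrays and summarizes each probe set. Over all probe sets, correlations were 0.992 to 0.997 within a group and 0.971 to 0.976 between groups, and the median of all values was 4.82. RMA compresses differences near and under that level. On its brightest probe set NFIC itself was not higher in the transfected group (8.47 ± 0.06 in wild type and 8.25 ± 0.04 in transfected arrays, SD, n = 3 each). The transfected values there were all lower (log2 change -0.22, limma adjusted p = 0.082 over all probe sets). Its dimmer probe sets went both ways, with -0.11, -0.51 and 0.22, and none had an adjusted p under 0.05. The labels do not state whether the plasmid's transcript holds the regions these probe sets read, so each direction rests on the labels. Of the markers of the labelled cell type, KRT18 (12.55 ± 0.11 in wild type) was high and KRT8 (6.59 ± 0.19) was above the median of all probe sets. The epithelial cadherin CDH1 (3.42 ± 0.02) and KRT19 (4.01 ± 0.20) lay under it, beside a high level of the mesenchymal filament gene VIM (13.54 ± 0.01). Of the 7 such markers, KRT7 (log2 change -0.98), KRT18 (-0.93) and VIM (-0.53) fell in limma and 4 did not pass, beside 31.9% of all genes with an adjusted p under 0.05. Of those 4, EPCAM (-0.75) passed with the replicate number as a block (adjusted p = 0.0201). The fall of KRT7 was read by a probe set ending in _s_at, and its other 3 probe sets read -0.04, -0.13 and -0.01 (adjusted p = 0.887 when probe sets ending in _x_at or _s_at are left out). Less RNA per cell and fewer cells with a transcript cannot be told apart in such bulk samples.

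S100 proteins carry a pair of EF-hand calcium-binding loops and mostly act as dimers. On binding calcium they expose a surface that grips other proteins, such as annexins, myosin and the scaffold protein IQGAP1. Several are also released from cells, where they act on receptors such as AGER (RAGE) and TLR4. In breast cancer, S100P and S100A4 are known for their links to motility and metastasis, S100A10 for bringing plasminogen to the cell surface together with annexin A2, and S100A8 with S100A9 for forming calprotectin, a protein of neutrophils that is also made by some epithelial tumours.

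Promoter windows were taken from RefSeq (GRCh38.p14) for all 10 genes, 14 windows in all, each from 250 bases before to 50 bases after a transcript start. They are shown for the gene with the largest difference, S100P, and for 2 pairs of genes that lie side by side or act as a pair and whose differences were unlike, S100A8 with S100A9 and S100A10 with S100A11. Capitals mark TTGGC or its reverse complement GCCAA, the short site of nuclear factor I, and TATAAA, the TATA box. The S100P window is chr4:6693628-6693927 on the plus strand. That of S100A9 is chr1:153357604-153357903 on the plus strand. The window of S100A8, for the middle of its 3 starts, is chr1:153391024-153391323 on the minus strand. S100A10 is shown at chr1:151993810-151994109 and S100A11 at chr1:152036955-152037254, both on the minus strand.
S100P: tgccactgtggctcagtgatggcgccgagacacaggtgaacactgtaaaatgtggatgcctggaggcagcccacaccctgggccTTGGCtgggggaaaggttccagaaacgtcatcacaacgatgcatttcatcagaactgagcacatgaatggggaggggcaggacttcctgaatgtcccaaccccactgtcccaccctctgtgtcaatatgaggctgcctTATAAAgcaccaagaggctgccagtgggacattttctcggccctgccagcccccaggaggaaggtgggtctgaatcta
S100A8: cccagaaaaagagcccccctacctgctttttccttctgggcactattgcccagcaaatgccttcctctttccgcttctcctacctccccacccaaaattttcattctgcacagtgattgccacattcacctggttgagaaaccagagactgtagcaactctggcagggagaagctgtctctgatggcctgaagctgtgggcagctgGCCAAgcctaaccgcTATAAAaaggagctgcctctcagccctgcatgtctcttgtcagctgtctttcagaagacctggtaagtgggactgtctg
S100A9: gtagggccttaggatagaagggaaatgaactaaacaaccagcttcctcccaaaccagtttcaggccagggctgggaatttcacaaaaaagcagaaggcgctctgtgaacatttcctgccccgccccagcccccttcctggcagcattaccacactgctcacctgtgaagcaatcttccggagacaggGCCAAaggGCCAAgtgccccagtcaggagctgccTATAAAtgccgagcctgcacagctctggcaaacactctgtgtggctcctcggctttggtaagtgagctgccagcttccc
S100A10: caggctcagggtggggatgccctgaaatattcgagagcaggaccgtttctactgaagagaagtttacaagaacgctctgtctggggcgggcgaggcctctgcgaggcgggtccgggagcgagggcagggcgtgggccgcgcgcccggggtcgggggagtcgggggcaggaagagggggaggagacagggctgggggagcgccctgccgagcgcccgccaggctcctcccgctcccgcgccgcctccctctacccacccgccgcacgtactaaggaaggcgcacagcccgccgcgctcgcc
S100A11: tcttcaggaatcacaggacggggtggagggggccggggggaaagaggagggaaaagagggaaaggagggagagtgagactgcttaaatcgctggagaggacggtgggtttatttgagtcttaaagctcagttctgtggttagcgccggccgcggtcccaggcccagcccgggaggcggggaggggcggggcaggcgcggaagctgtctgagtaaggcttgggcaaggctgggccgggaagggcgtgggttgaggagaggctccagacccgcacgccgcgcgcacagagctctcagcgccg

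Five-prime ends of these genes differed in composition. Position +1 is the transcript start. TATAAA began at position -28 in S100P, at -29 in S100A9 and in the printed window of S100A8, and at -31 in S100A4. It was searched on both strands and was present in 5 of the 14 windows, 2 of them overlapping windows of S100A8, while 11.5% of all 35116 windows held it. The windows of S100A6, S100A10 and S100A11 held no TATAAA, and they were rich in the dinucleotide CG, with 31, 32 and 22 against a median of 14 over all windows. Those of S100A2, S100A3 and S100A16 also held no TATAAA, but their counts of CG were between 3 and 8. S100P and S100A9 held 5 each and the printed window of S100A8 held 2.

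The short site TTGGC, searched on both strands, was in 7 of the 14 windows, near its share of 45.6% over all windows. In S100P it began at position -166, in the printed window of S100A8 at -44 and in S100A9 at -63 and -55. The windows of S100A10, S100A11, S100A2, S100A3 and S100A4 held none. The full palindrome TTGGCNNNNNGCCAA, which 0.0285% of all windows held, was in none of the 14. The AP-1 site TGANTCA, in 7.71% of all windows, was found in a window of S100A2 and in that of S100A3. Such matches describe letters in these windows and do not show binding.

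**Figure D1:**
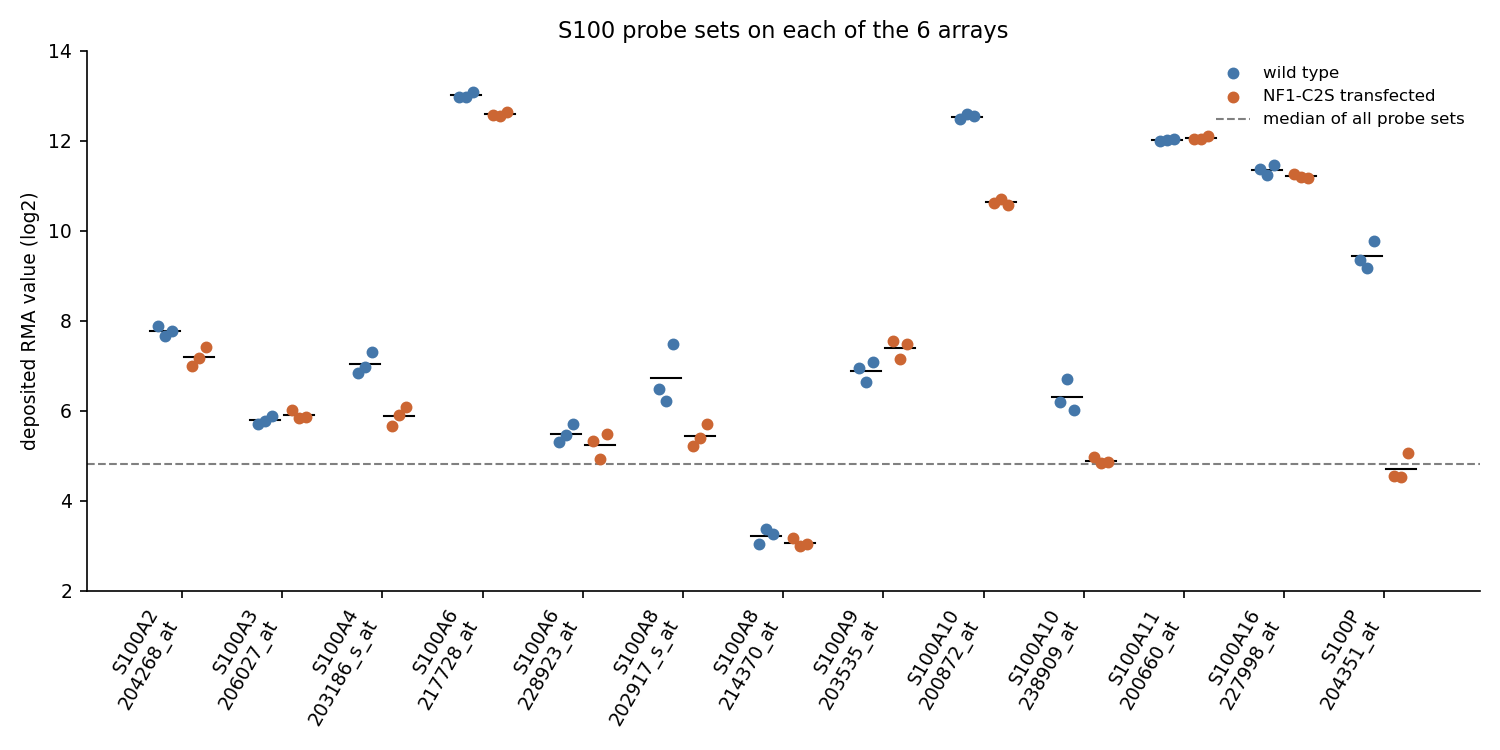
Deposited RMA values (log2, vertical axis) of the 13 probe sets of the 10 S100 genes (horizontal axis), with a point for each of the 3 wild type and 3 NF1-C2S transfected arrays, a bar at each group's mean and a dashed line at the median of all probe sets, 4.82. S100P went from between 9.17 and 9.78 in wild type to between 4.52 and 5.05 in transfected arrays, while S100A11 read 12 to 12.11 on all 6.

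S100P had the largest difference of the 10 genes. Probe set 204351_at read 9.36, 9.17 and 9.78 on wild type arrays 1, 2 and 3 and 4.56, 4.52 and 5.05 on transfected arrays 1, 2 and 3. The transfected arrays were all lower, the groups lay far apart, and 2 of the 3 transfected arrays lay under the median of all probe sets. Means were 9.44 ± 0.31 and 4.71 ± 0.30 (SD, n = 3 each), a log2 difference of -4.73 (SE 0.19), or 26.5-fold lower. Because the transfected mean is at the dim end of the scale, where RMA compresses differences, the size of that fold depends on the level that counts as background. S100P is the only one of these genes outside 1q21, and it is read by that probe set alone.

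Among the genes of 1q21 that are well expressed in this line, S100A10 stood out. It encodes p11, the S100 protein that cannot bind calcium and that joins annexin A2 in a complex at the plasma membrane. Its bright probe set, 200872_at, read 12.48, 12.59 and 12.54 in wild type and 10.61, 10.71 and 10.58 in transfected arrays. Its dimmer probe set, 238909_at, read 6.20, 6.70 and 6.01 in wild type and 4.97, 4.83 and 4.86 in transfected arrays. Groups did not overlap on either, and the log2 differences were -1.90 (SE 0.08; 3.74-fold lower) and -1.42 (SE 0.17; 2.67-fold lower). On the bright probe set the difference was about the same in each pair of arrays with 1 replicate number, -1.87, -1.88 and -1.96.

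S100A11, the gene next to S100A10 in the order of S100 genes on 1q21, was level. It encodes a partner of annexin A1 that takes part in membrane repair. Probe set 200660_at read 12, 12.01 and 12.04 in wild type and 12.03, 12.03 and 12.11 in transfected arrays, so the groups overlapped. The log2 difference was 0.04 (SE 0.07), and it was -0.01 after quantile normalization between arrays. RefSeq lists pseudogenes of S100A11, and reads of the message and of such copies may not be separate on the probe set. The difference of S100A10 minus that of S100A11 was -1.90, -1.90 and -2.02 on the log2 scale in pairs 1, 2 and 3.

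S100A6, or calcyclin, a partner of the ubiquitin ligase adaptor CACYBP, had the brightest probe set of the 10 genes and a small difference. Probe set 217728_at read 12.97, 12.98 and 13.09 in wild type and 12.57, 12.55 and 12.64 in transfected arrays, without overlap. That is a log2 difference of -0.43 (SE 0.08; 1.34-fold lower). On a second, dim probe set, 228923_at, the groups overlapped, with 5.49 ± 0.21 and 5.24 ± 0.28 (log2 difference -0.25, SE 0.16). S100A16, a widely expressed member of the family, read 11.37, 11.23 and 11.47 in wild type and 11.26, 11.20 and 11.18 in transfected arrays, and its groups overlapped (log2 difference -0.14, SE 0.09).

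S100A4, also known as metastasin or FSP1, binds non-muscle myosin IIA and is widely used as a marker of fibroblast-like cells. It was lower on the arrays labelled transfected. Probe set 203186_s_at read 6.84, 6.98 and 7.31 in wild type and 5.65, 5.91 and 6.08 in transfected arrays. All transfected values lay under all wild type values, with a log2 difference of -1.16 (SE 0.15; 2.24-fold lower). The suffix _s_at marks probe sets that can read more than 1 transcript, and S100A4 has no probe set without it.

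S100A2, a nuclear S100 protein of basal epithelial cells, and S100A3, a cysteine-rich protein of the hair cuticle, lie beside S100A4 and had smaller differences. S100A2 read 7.88, 7.65 and 7.77 in wild type and 7.0, 7.17 and 7.41 in transfected arrays. Its groups did not overlap (log2 difference -0.57, SE 0.12; 1.49-fold lower), and the pair differences ranged from -0.88 to -0.36. S100A3 read 5.70, 5.77 and 5.89 in wild type and 6.02, 5.84 and 5.87 in transfected arrays, and its groups overlapped (log2 difference 0.12, SE 0.09).

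The genes of calprotectin, S100A8 and S100A9, differed in opposite directions. S100A8 was lower on probe set 202917_s_at, which read 6.48, 6.22 and 7.49 in wild type and 5.21, 5.40 and 5.71 in transfected arrays. Wild type array 3 was the highest by a wide margin, and the groups did not overlap (log2 difference -1.29, SE 0.31). Without wild type replicate 3 the difference was -0.91. A second S100A8 probe set, 214370_at, lay near background, at 3.22 ± 0.17 and 3.07 ± 0.09 (log2 difference -0.15, SE 0.11).

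S100A9 was higher, with 6.96, 6.63 and 7.08 in wild type and 7.54, 7.16 and 7.48 in transfected arrays on probe set 203535_at. The lowest transfected value lay just above the highest wild type value, and the log2 difference was 0.50 (SE 0.15; 1.42-fold higher). The difference of S100A9 exceeded that of S100A8 by 1.85, 1.35 and 2.18 on the log2 scale in pairs 1, 2 and 3. S100A12, the third gene of this myeloid group on 1q21, lay near background, at 3.46 ± 0.24 and 3.38 ± 0.16.

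Since S100A8 and S100A9 are abundant in myeloid cells, 10 myeloid markers were read beside them. The pan-leukocyte gene PTPRC lay at 3.65 ± 0.15 and 3.86 ± 0.23, and 7 of the 10 markers lay under the median of all probe sets on every array. The summed signal of the 10, added as unlogged values, was 8.03 to 8.23 in wild type and 7.82 to 7.88 in transfected arrays on the log2 scale. Brighter markers weigh most in that sum, and ITGAM was the brightest in wild type (6.25 ± 0.18, and 5.04 ± 0.49 in transfected arrays). The sum is thus no measure of the 10 markers alike. Of the 10, the integrin ITGAM fell (log2 change -1.21, SE 0.23, limma adjusted p = 0.00534) and 9 did not pass, beside 31.9% of all genes with an adjusted p under 0.05. ITGAM was read there by a probe set ending in _s_at, and on 205785_at it read -0.11 (adjusted p = 0.718 when probe sets ending in _x_at or _s_at are left out). The part of these markers in the values of S100A8 and S100A9 was not tested.

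In the limma fit over all genes, with a gene represented by its brightest probe set, 7 of the 10 S100 genes had an adjusted p under 0.05, beside 31.9% of all genes. Of these, 6 were lower, beside 16.9% of all genes, and 1, S100A9, was higher, beside 15% of all genes. Groups did not overlap for 7 of the 10, beside 43% of all genes. Over probe sets, 8 of the 13 were past that threshold, beside 22.2% of all probe sets. The genes were listed with this comparison in view, so nothing is read from these counts. S100A9 was not past the threshold without wild type replicate 1 or 2 or transfected replicate 1 or 3, nor S100A8 without transfected replicate 2. With the _x_at and _s_at probe sets left out, S100A8 was also not past it.

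**Figure D2:**
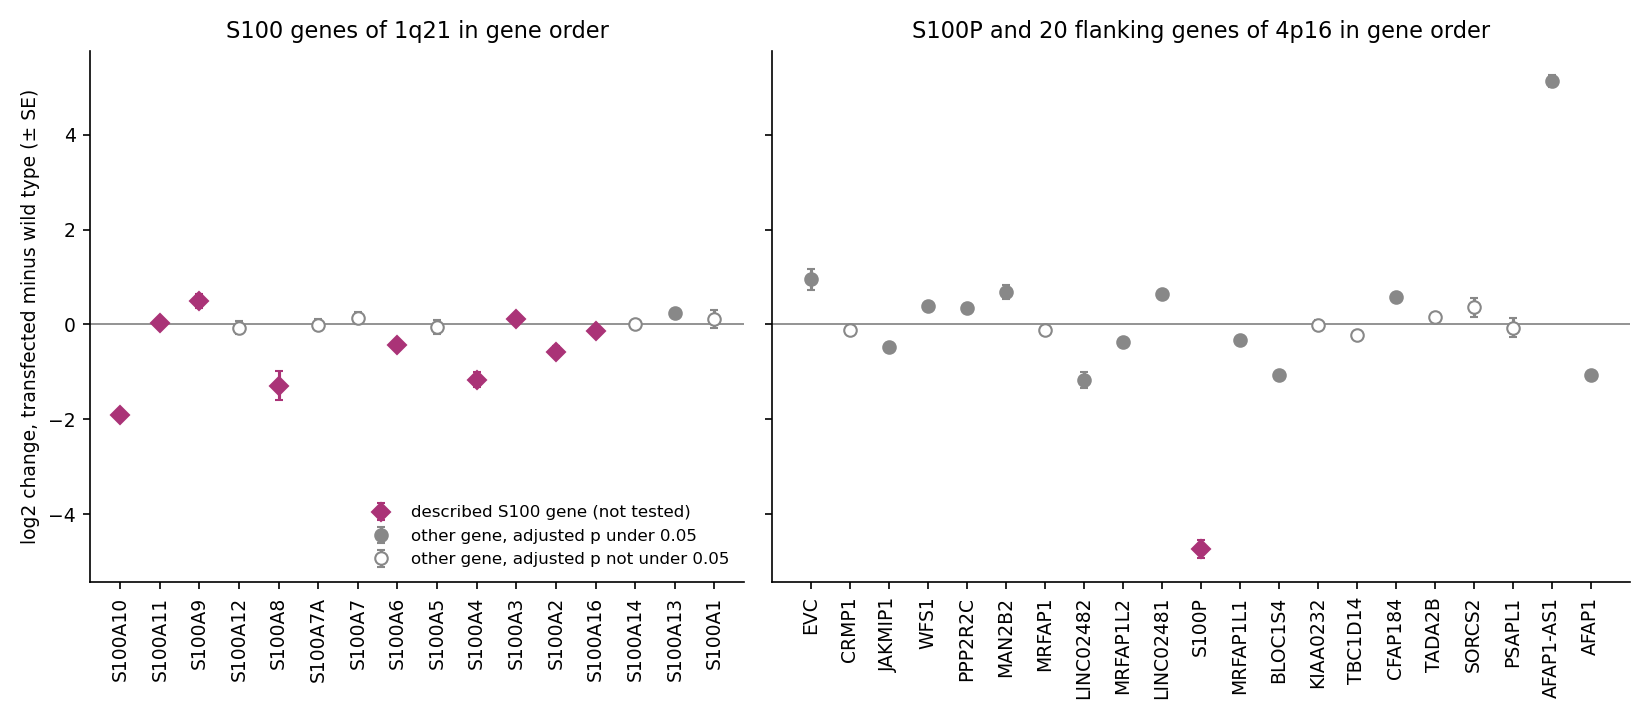
Log2 change, transfected minus wild type, with its standard error (vertical axis) for the 16 measured S100 genes of 1q21 (left) and for S100P with its 20 flanking measured genes of 4p16 (right), both in gene order. Diamonds are the S100 genes described here, filled circles are other genes with an adjusted p under 0.05 and open circles other genes that did not pass. S100P, at -4.73, lies among flanking genes most of which are between -1.17 and 0.95, with AFAP1-AS1 at 5.13.

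S100P thus differed more than any of the 9 genes of 1q21. Their log2 differences ran from -1.90 for S100A10 to 0.50 for S100A9, with a median of -0.43. S100P minus that median was -4.30, and it was -4.40, -4.22 and -4.37 in pairs 1, 2 and 3. This contrast was set with the values known and has no test. Along 1q21, neighbouring genes differed in size and direction. In gene order, S100A10 at -1.90 was followed by S100A11 (0.04), S100A9 (0.50), S100A12 (-0.07) and S100A8 (-1.29). After S100A7A and S100A7, which read -0.0033 and 0.14 at dim levels, came S100A6 (-0.43), S100A5 (-0.06), S100A4 (-1.16), S100A3 (0.12), S100A2 (-0.57) and S100A16 (-0.14).

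Genes beside S100P on 4p16 went both ways. Among the 10 measured genes on either side there were 7 rises and 6 falls, and 7 genes did not pass (limma, adjusted over all genes), beside 15% of all genes higher and 16.9% lower, with a median of -0.04 (all genes: 0.0). The measured genes next to S100P were the noncoding LINC02481, which rose from 4.58 ± 0.10 to 5.21 ± 0.09 (log2 change 0.63, limma adjusted p = 0.000863), and MRFAP1L1, which fell from 10.18 ± 0.04 to 9.85 ± 0.04 (log2 change -0.32, adjusted p = 0.00709). The largest changes were the rise of the antisense RNA AFAP1-AS1 from 4.64 ± 0.27 to 9.77 ± 0.07 (log2 change 5.13, SE 0.13, adjusted p = 1.29e-06; 3.43 on its second probe set, both dim in wild type) and falls of LINC02482 (-1.17), of AFAP1, an actin filament-associated protein (-1.07), and of BLOC1S4, a subunit of a complex for lysosome-related organelles (-1.07).

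Genes around and among the S100 genes of 1q21 were read beside them. Of 49 such genes, 12 rose, 2 fell and 35 did not pass (limma, median 0.09), beside 31.9% of all genes past the threshold, 15% higher and 16.9% lower, and 23 of them lay under the median of all probe sets in both groups. Of the 10 measured genes after S100A1, 7 rose, 0 fell and 3 did not pass, with a median of 0.34. They included DENND4B, a regulator of Rab GTPases (log2 change 0.71, adjusted p = 0.000373), and CRTC2, a coactivator of CREB (0.64, adjusted p = 0.00944). Of the 10 before S100A10, 4 rose and 6 did not pass, with tuftelin, TUFT1, at 0.74 (adjusted p = 0.000614). Between these ends, the noncoding RNA CCDST rose from 3.94 ± 0.10 to 5.66 ± 0.21 (log2 change 1.72, adjusted p = 4.05e-05), while a second probe set of it read 0.03. LINC01527 and PGLYRP4 fell, by 0.49 and 0.24, on levels near background (limma adjusted p = 0.0404 and 0.0433, and 0.0522 for both with the replicate number as a block). The LINC01527 call was lost in 6 of the 12 alternatives that could be run for it. With the _x_at and _s_at probe sets left out, fewer genes were tested, and 4620 of all genes were past the threshold in place of 6300. In that setting 7 of the genes in and around the cluster were past it, and TUFT1 had no probe set left to test.

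Most of the other S100 genes were not expressed above the dim range. The 10 that were measured held 1 rise and 0 falls in limma, and 9 did not pass, beside 31.9% of all genes past the threshold. Their median change was -0.0017, and 6 lay under the median of all probe sets in both groups. S100A13, which takes part in the release of FGF1, rose from 9.68 ± 0.05 to 9.93 ± 0.09 (log2 change 0.25, SE 0.08, limma adjusted p = 0.0404). That call was lost in 9 of 14 alternatives, among them its probe sets averaged (0.06, adjusted p = 0.559) and without any 1 array (adjusted p = 0.057 to 0.127). S100A14, often expressed in epithelial cells, read 4.87 in both groups, and S100B, a glial and melanocyte gene, read 3.52 and 3.54. Of 5 measured genes of S100-fused proteins such as filaggrin (FLG), 0 passed in limma, beside 31.9% of all genes. Also at an unadjusted p under 0.05 there were 0, and 4 lay under the median of all probe sets in both groups. Of 11 measured cornified envelope genes, which lie among the S100 genes of 1q21, PGLYRP4 fell and 10 did not pass, again beside 31.9% of all genes past the threshold. Of these 11, 8 lay under the median of all probe sets in both groups. The PGLYRP4 call was lost in 9 of 14 alternatives, 5 of which left out 1 array (adjusted p = 0.0826 to 0.141).

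**Figure D3:**
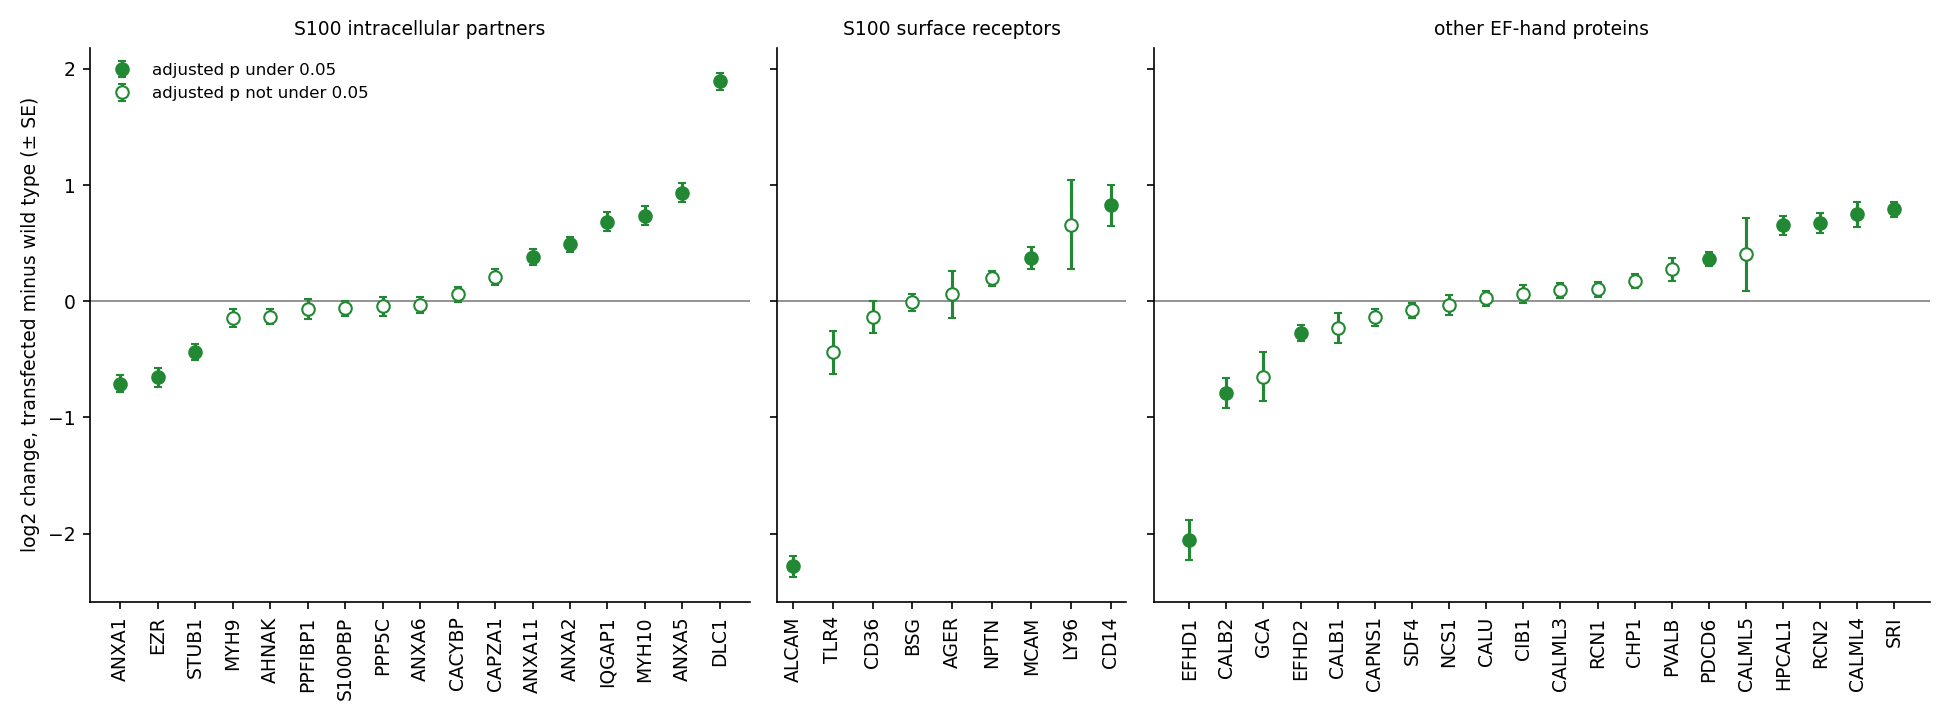
Log2 change, transfected minus wild type, with its standard error (vertical axis) of the measured S100 partners inside the cell, S100 surface receptors and other EF-hand proteins (genes on the horizontal axes, ordered by change). Filled points have a limma adjusted p under 0.05; DLC1 at 1.89 is the highest, and ALCAM at -2.28 and EFHD1 at -2.06 are the lowest.

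Proteins that S100 proteins bind inside cells moved in both directions. The 17 that were measured held 6 rises and 3 falls in limma, and 8 did not pass, beside 31.9% of all genes past the threshold, with a median of -0.03. The partner of S100A10, annexin A2 (ANXA2), rose from 13.39 ± 0.02 to 13.88 ± 0.03 (log2 change 0.49, SE 0.06, limma adjusted p = 0.000803), while S100A10 was lower. ANXA2 is named here as that partner and lies outside the rule for named genes. Its 3 bright probe sets read 0.49, 0.48 and 0.52, and all end in _x_at. With such probe sets left out it read 0.43 and did not pass (adjusted p = 0.108). DLC1, which S100A10 binds, rose from 8.83 ± 0.09 to 10.73 ± 0.02 (log2 change 1.89, SE 0.07, adjusted p = 4.92e-06), and its probe set 224822_at read 1.88, while 3 dim ones read 1.40, -0.21 and -0.09. The mean over its probe sets was 0.98.

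Among the other annexins, ANXA1, the partner of S100A11, fell from 12.90 ± 0.02 to 12.19 ± 0.09 (log2 change -0.71, limma adjusted p = 0.000266), and ANXA5 rose from 10.88 ± 0.06 to 11.81 ± 0.11 (0.93, adjusted p = 0.000124). The non-muscle myosin heavy chain MYH10 rose by 0.74 (adjusted p = 0.000381). Named outside the rule for what they bind, MYH9, the myosin bound by S100A4, read -0.14 (adjusted p = 0.21), and ezrin (EZR), which S100P binds and activates, fell by 0.66 (adjusted p = 0.000853). That fall was read by a probe set ending in _s_at, and without such probe sets and those ending in _x_at EZR read -0.35 (limma adjusted p = 0.0273). IQGAP1, a scaffold that S100P and S100B bind, rose by 0.69 (adjusted p = 0.000468), and S100PBP, a nuclear binding protein of S100P, read -0.06 (adjusted p = 0.569). On 218370_s_at, about as bright, S100PBP read -0.25 (limma adjusted p = 0.0522 over all probe sets). With the _x_at and _s_at probe sets left out, fewer genes were tested, and 4620 of all genes were past the threshold in place of 6300. In that setting 5 of these partners were past it, and IQGAP1 had no probe set left to test.

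The 9 measured surface receptors and co-receptors for S100 proteins held 2 rises and 1 fall in limma, and 6 did not pass, with a median of 0.06, a share near the 31.9% of all genes past the threshold. ALCAM, a cell adhesion molecule related to AGER, fell from 9.66 ± 0.03 to 7.37 ± 0.15 (log2 change -2.28, SE 0.09, limma adjusted p = 5.17e-06), and 201951_at read -2.36. The lipopolysaccharide co-receptor CD14 rose from 5.76 ± 0.29 to 6.59 ± 0.27 (0.82, adjusted p = 0.00947). MCAM rose by 0.37 on a probe set ending in _x_at (adjusted p = 0.0212, but 0.0566 without wild type replicate 2 and 0.0754 without wild type replicate 3), while its other probe set read -0.11. Named outside the rule as receptors of S100A8 and S100A9, TLR4 read -0.44 at a dim level (adjusted p = 0.118, and 0.0122 with the replicate number as a block), AGER read 0.06 near 5.14 (adjusted p = 0.878) and BSG, the receptor basigin, read -0.01 at 10.79 (adjusted p = 0.947).

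The 20 measured EF-hand proteins outside the S100 family held 5 rises and 3 falls in limma (median 0.08), beside 31.9% of all genes past the threshold. With the replicate number as a block 10 were past it, as CALB1 (-0.23, adjusted p = 0.0476) and GCA (-0.65, adjusted p = 0.0214) passed too. Sorcin (SRI), a regulator of calcium release, rose by 0.79 (adjusted p = 8.33e-05) and the calmodulin-like CALML4 by 0.75 (adjusted p = 0.00159). On its other, dimmer probe sets CALML4 read 0.61, 0.46, 0.08 and -0.07, and the mean over its probe sets was 0.37. The mitochondrial EFHD1 fell, with 6.28 ± 0.34 in wild type and 4.22 ± 0.18 in transfected arrays (log2 change -2.06, adjusted p = 0.000108), and calretinin (CALB2) fell by 0.79 (adjusted p = 0.00259).

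The genes whose values over the 6 arrays were most like those of S100P, by the Euclidean distance between log2 values centred on each gene's mean, were CCNG1, which encodes cyclin G1, at a distance of 0.52, the surface glycoprotein CD24 at 0.56, and MAT2B, a subunit of methionine adenosyltransferase, at 0.57. CD24 read 11.60, 11.50 and 11.54 in wild type and 6.75, 6.95 and 7.47 in transfected arrays. The likeness mostly reflects the size of the difference between the groups.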

How the data were processed

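The authors deposited 1 table of log2 values with a column per array, made with RMA per the submitters' processing notes; the labels do not state its version. The 62 control probe sets were left out, which left 54613. Genes were named through the platform annotation and, by gene identifier, the GRCh38.p14 table of RefSeq (41037 of 41091 probe sets that name 1 gene), which also gave gene order. Each of 19775 genes was represented by its brightest probe set that names it alone. Groups were compared with limma 3.58.1 in R 4.3.3 (two-sided), with Benjamini-Hochberg adjustment over all genes, or over all probe sets for single probe sets of S100 genes, and a threshold of 0.05. Standard errors come from the same fits. The fit was also run on data simulated with independent noise on each array, so that run does not cover deviations shared between arrays. Arrays have no read depth, and their number limits the precision.

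The 10 S100 genes and 8 gene lists were chosen with earlier results of these data known. Named were all S100 genes listed, up to 4 genes of each list or set of flanking genes with the largest changes past the threshold and no overlap between groups, the 3 genes most like S100P, and markers. List genes without a probe set of their own were not analysed here. Arrays with the same replicate number deviated together for numbers 1 and 2 (correlations 0.398 and 0.238; -0.277 to 0.142 for arrays of unlike number). For number 3 the correlation (0.140) was no higher than that of wild type replicate 2 with transfected replicate 3 (0.142). Differences by pair follow the numbers in the labels, and the data do not set the third pair apart. The main fit leaves out the replicate number, which enters as a block in an alternative fit. The other alternatives were 3 normalizations, robust moderation with a variance trend, other choices of probe sets and leaving out each array.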

Additional observations from a re-analysis of the deposited data

How the results depend on the processing

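Of the 10 S100 genes, none that was past the threshold changed sign in any of the 14 alternatives run. S100P ranged from -4.90 to -4.56, S100A10 from -1.94 to -1.66, S100A4 from -1.27 to -1.03, S100A8 from -1.55 to -0.15 and S100A9 from 0.37 to 0.62 on the log2 scale. S100P minus the median of the genes of 1q21 ranged from -4.44 to -4.17 when 1 array was left out. It has no value when probe sets ending in _x_at or _s_at are left out, because S100A4 has no other probe set. Those probe sets mattered most: without them 7153 probe sets were past the threshold in place of 12142, 5 of the S100 partners, 7 genes in and around 1q21, and, in limma, 0 of the other S100 genes, cornified envelope genes, myeloid markers and epithelial markers (1, 1, 0 and 0 at an unadjusted p under 0.05), and MCAM turned to -0.11. Fewer genes and probe sets were tested there, and over all genes 4620 were past the threshold in place of 6300. Genes past the threshold in the main fit that had no probe set left included S100A4, KRT18, VIM, IQGAP1, TUFT1, CALB2 and LINC01527. The lower counts thus partly reflect genes that were not measured.

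The count of 1 other S100 gene became 0 in limma with each array centred on its median (1 at an unadjusted p under 0.05), with the mean of probe sets (0), and without any 1 array (range 0 to 0). That of 1 cornified envelope gene became 0 with median centring, with trend and robust moderation, with the replicate block (1, 0 and 1 at an unadjusted p under 0.05) and, over arrays left out, ranged from 0 to 1. The S100-fused genes ranged from 0 to 1. With the replicate block 6665 genes were called in place of 6300. TLR4, CALB1, GCA, EPCAM and GATAD2B passed with it (adjusted p = 0.0122, 0.0476, 0.0214, 0.0201 and 0.0436), LINC01527 and PGLYRP4 did not, and it changed no other call of the genes in the lists. The cause of these shifts was not tested. Probe sets near the median of all values, such as those of S100P in transfected arrays, have differences that RMA compresses.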
